A study of Mus musculus with 16 samples.

Results

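Receptors and enzymes of extracellular nucleotide signalling, 8 genes in all, were followed across sorted mouse macrophages from wild-type mice and mice that lack Bhlhe40, which encodes a repressor of transcription of the helix-loop-helix family. They comprise 4 P2Y receptors (P2ry6, P2ry12, P2ry13 and P2ry14), 2 P2X receptors (P2rx4 and P2rx7) and 2 ectonucleotidases (Entpd1 and Nt5e). The 8 genes were selected from earlier results of these same arrays, in which P2ry6 was higher and Nt5e lower in mutants, so the genotype values below describe that choice and are offered as no test of it. Each of the 8 was read by 1 probe set, out of 19938 genes with a named probe set, and all 8 were among the 11634 genes bright enough to be tested.

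Cells that are stressed, dying or activated release ATP, UTP and UDP-sugars, which act as signals outside the cell. P2X receptors are ATP-gated cation channels and P2Y receptors are G-protein-coupled receptors for different nucleotides, while the ectonucleotidase CD39, encoded by Entpd1, degrades ATP and ADP to AMP and CD73, encoded by Nt5e, converts AMP to adenosine. Resident macrophages carry receptors and enzymes of this system, which is known for its part in phagocytosis, migration, inflammasome activation and the damping of inflammation.

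The 16 one-colour Affymetrix mouse gene arrays hold macrophages from male C57BL/6 mice, whose ages the labels do not give. Alveolar macrophages (AM) were sorted from lung digests of untreated mice, as 2 arrays of Bhlhe40+/+ mice (Bhlhe40WT, here WT) and 2 of Bhlhe40-/- mice (Bhlhe40KO, here KO). Large peritoneal macrophages (LPM) were sorted from peritoneal lavage of untreated (naive) mice, as 3 WT and 3 KO arrays. Mice given IL-4c, a complexed form of interleukin-4, on days 0 and 2 and killed on day 4 gave a further 2 WT and 2 KO arrays and 2 arrays of LysM-Cre+ Bhlhe40fl/fl mice (Bhlhe40LysM, here LysM). The KO lacks Bhlhe40 in all cells of the body, whereas LysM-Cre is driven from the lysozyme 2 gene, which is active in myeloid cells. The labels do not say whether arrays of a group came from separate mice or from pools, so p-values cover only array-to-array spread, which may be technical. Precision is limited by having 2 or 3 arrays in a group.

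Values are log2 signals, and a difference is the first group minus the second with its standard error (SE). Array medians lay between 4.79 and 4.93, and a signal near or below them may be background. Where 1 side of a difference is that dim, a lower bound on the fold is given as well, with each reading under its array's median raised to that median, a rule set after the values were seen. Such a bound, written as at least, allows for background in the group means and carries no sampling error. Bhlhe40 averaged 9.82 in WT and 7.64 in KO AM, 8.68 and 6.8 in naive LPM, and 8.88 and 7.96 in IL-4c LPM, but 8.79 on the arrays labelled LysM, so directions drawn from those 2 arrays rest on their label. Whether this probe set lies within the floxed part of the gene is not given, so the value does not check the deletion. The labelled cell types carried their markers. All 7 measured LPM markers, Gata6 among them, lay above the array median on every LPM array, against 1 in each AM group. All 7 measured AM markers, Siglecf and Car4 among them, lay above it on every AM array. Between 2 and 4 of these AM markers also did so on every array of a given LPM group. Car4 (6.42 to 8.13) and Chil3 (12.37 to 12.55) were among them on the IL-4c LPM arrays. Markers of B cells, T and NK cells, mast cells and neutrophils averaged at most 5.13, 4.04, 3.89 and 5.17 on any array. Those of dendritic cells, of monocytes and of the small kind of peritoneal macrophage averaged at most 4.94. Single genes were brighter, with neutrophil genes Csf3r and S100a8 up to 9.44 and 7.88, Cd79b up to 6.56 and Irf4 up to 6.91. Cd209a read 6.22 to 6.4 on naive WT, 4.75 to 5.43 on naive KO and 6.46 to 7.83 on IL-4c LPM arrays. The part of such cells in the values was not tested.

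**Figure D1:**
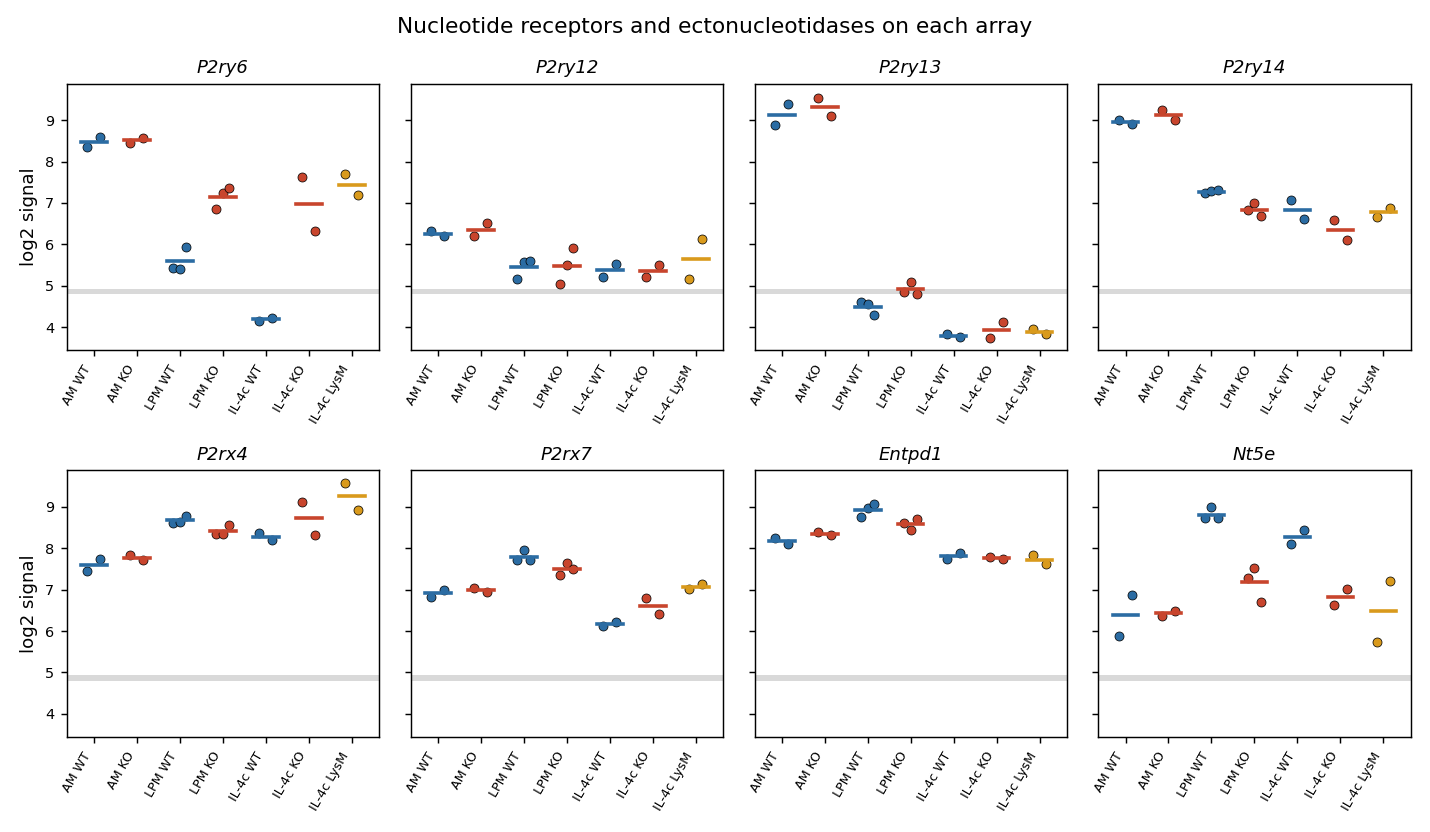
Log2 signal of the 8 genes on each of the 16 arrays (points), with group means (bars), for WT (blue), KO (red) and LysM (gold); the grey band spans the array medians, 4.79 to 4.93. P2ry6 is low in WT LPM and higher in mutant LPM, Nt5e shows the opposite order, and P2ry13 is above the band on all AM arrays and near or below it in LPM.

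The regulatory sequence of these genes is given first, since Bhlhe40 binds DNA at the E-box CACGTG. In RefSeq's promoter table (GRCm38.p6) 7 of the 8 genes had at least 1 entry, with 12 start sites in all; P2ry6 had none. Only P2ry12 held CACGTG, a motif that reads the same on both strands, in the 250 bases before an annotated start, against 6.02% of all 32851 windows of that length. Its single copy began 228 bases before the start. Below are the window of P2ry12 (chr3:59262986-59263235, minus strand), with the motif in capitals, and that of Nt5e (chr9:88327359-88327608, plus strand), the enzyme gene whose signal was lower in mutants, both written 5′ to 3′.
P2ry12: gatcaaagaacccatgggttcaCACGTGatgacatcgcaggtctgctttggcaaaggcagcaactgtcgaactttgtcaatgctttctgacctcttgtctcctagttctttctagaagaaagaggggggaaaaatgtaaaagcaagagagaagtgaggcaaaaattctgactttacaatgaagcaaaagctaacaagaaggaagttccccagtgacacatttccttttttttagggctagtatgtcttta
Nt5e: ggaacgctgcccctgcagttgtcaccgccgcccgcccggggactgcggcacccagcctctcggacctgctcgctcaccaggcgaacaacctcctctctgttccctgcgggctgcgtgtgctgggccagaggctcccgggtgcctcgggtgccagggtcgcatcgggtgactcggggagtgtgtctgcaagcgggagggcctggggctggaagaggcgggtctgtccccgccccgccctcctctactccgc
The Nt5e window has a GC content of 72% and holds 1 general E-box (CANNTG, of which CACGTG is one form) and no CACGTG. The P2ry12 window has a GC content of 41.6% and holds 2 general E-boxes, CACGTG included. A general E-box occurs in 66.2% of all windows. These letters describe the windows and show no binding, and a window without them says nothing of sites elsewhere.

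P2ry6 encodes the UDP receptor, which couples to calcium release and is known for promoting phagocytosis in microglia. Its gene lies on chromosome 7, from 100937630 to 100975498 (GRCm38.p6, as for all positions here). WT AM arrays gave log2 signals of 8.36 and 8.6, and KO AM arrays 8.44 and 8.58. Among naive LPM the WT arrays gave 5.43, 5.4 and 5.94 and the KO arrays 6.86, 7.23 and 7.36. After IL-4c the WT arrays gave 4.14 and 4.23, the KO arrays 7.63 and 6.31, and the LysM arrays 7.7 and 7.18. The 4 AM arrays were the highest of all 16, the mutant LPM arrays came next, and every WT LPM array lay below every mutant array of either treatment. In order of the group means, LysM, naive KO and IL-4c KO overlapped, whereas naive WT lay below them and IL-4c WT below naive WT, with no overlap.

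WT LPM carried 7.41-fold less P2ry6 signal than WT AM (-2.89 ± 0.29 SE in log2, limma adjusted p = 4.58e-07). Among KO arrays the LPM signal was 2.56-fold lower (-1.36 ± 0.29, limma adjusted p = 0.00121). IL-4c lowered P2ry6 in WT LPM (-1.41 ± 0.29 SE, limma adjusted p = 0.00105). Both IL-4c arrays there fell under their array median, so the bound on the fall of the means is 1.69-fold, sampling error aside. In KO LPM the IL-4c difference was -0.18 (95% interval -0.79 to 0.43, limma adjusted p = 0.662). That KO value depends on the array: it was -0.84 (adjusted p = 0.0239) without IL-4c KO replicate 1 and 0.48 (adjusted p = 0.162) without IL-4c KO replicate 2. These LPM arrays also gave the genotype values on which P2ry6 was chosen, so its tissue and IL-4c tests are not independent of the choice. As a description, KO minus WT was 0.03 ± 0.32 in AM, 1.56 ± 0.26 in naive LPM and 2.78 ± 0.32 in IL-4c LPM, and LysM minus WT was 3.25 ± 0.32. The IL-4c KO value was 2.13 without IL-4c KO replicate 1 and 3.44 without replicate 2. In these bulk sorts, fewer cells carrying a transcript and less of it per cell cannot be told apart.

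P2ry12, P2ry13 and P2ry14 lie together on chromosome 3. P2ry14 spans 59114623 to 59153492, P2ry13 follows after 54.4 kb at 59207892 to 59210882, and P2ry12 after a further 5.39 kb at 59216271 to 59262985. All 3 overlap the annotated span of Med12l, which was not among the tested genes, and P2ry14 overlaps the long non-coding gene F630111L10Rik. P2ry12 encodes the ADP receptor known as a marker of microglia, P2ry13 encodes another ADP receptor, and P2ry14 the receptor for UDP-glucose and related UDP-sugars.

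P2ry13 had the largest tissue difference of the 8 genes. WT AM arrays gave 8.89 and 9.38 and KO AM arrays 9.53 and 9.11. Naive LPM arrays gave 4.61, 4.55 and 4.3 for WT and 4.84, 5.1 and 4.81 for KO. IL-4c arrays gave 3.82 and 3.77 for WT, 3.73 and 4.13 for KO, and 3.95 and 3.83 for LysM. Only the AM arrays and naive KO replicate 2 rose above their array medians, so P2ry13 entered the tests through AM and its LPM values may be background. LPM were at least 19.3-fold below AM in WT (measured difference -4.65 ± 0.18, limma adjusted p = 2.62e-12) and at least 20.6-fold below in KO (-4.40 ± 0.18, limma adjusted p = 5.49e-12). The IL-4c differences, -0.69 ± 0.18 in WT and -0.99 ± 0.18 in KO, passed the test (limma adjusted p = 0.00528 and 0.000469) but lie between readings near or below the array medians on both sides, so they are not read as a change of the transcript. KO minus WT was 0.19 ± 0.19 in AM, 0.43 ± 0.16 in naive LPM and 0.13 ± 0.19 in IL-4c LPM, and LysM minus WT was 0.1 ± 0.19.

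P2ry14 was bright in both tissues. AM arrays read 9 and 8.9 in WT and 9.25 and 9.01 in KO, and naive LPM arrays 7.23, 7.28 and 7.3 in WT and 6.82, 6.99 and 6.68 in KO. IL-4c arrays read 7.06 and 6.62 in WT, 6.58 and 6.1 in KO, and 6.66 and 6.88 in LysM. The AM arrays stood above all LPM arrays, and in naive LPM the 3 KO arrays lay below the 3 WT arrays. LPM were 3.2-fold lower than AM in WT (-1.68 ± 0.16, limma adjusted p = 3.54e-07) and 4.91-fold lower in KO (-2.30 ± 0.16, limma adjusted p = 7.52e-09). The IL-4c falls were small, -0.43 ± 0.16 in WT (limma adjusted p = 0.0464) and -0.49 ± 0.16 in KO (limma adjusted p = 0.0279). Neither held in all settings. Without single WT arrays the WT value ran from -0.65 to -0.21, and the call was lost without any one of the 3 naive WT arrays or IL-4c WT replicate 2 (adjusted p = 0.0736, 0.0938, 0.0964 and 0.445). The KO call was lost without naive KO replicate 1 or 2 or IL-4c KO replicate 2 (adjusted p = 0.0528, 0.0935 and 0.342). Median-centred arrays gave an adjusted p of 0.0691 in WT and 0.0553 in KO, the WT call was also lost without the signal filter (0.0611), and the KO call with the compared arrays alone (0.0688). KO minus WT was 0.18 ± 0.18 in AM, -0.44 ± 0.15 in naive LPM and -0.50 ± 0.18 in IL-4c LPM, the last between -0.74 without IL-4c KO replicate 1 and -0.26 without IL-4c KO replicate 2, with -0.28 and -0.71 without IL-4c WT replicates 1 and 2. LysM minus WT was -0.07 ± 0.18, with overlapping arrays.

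P2ry12 varied least of the cluster. It read 6.31 and 6.2 in WT AM and 6.19 and 6.52 in KO AM, then 5.15, 5.58 and 5.6 in naive WT LPM and 5.04, 5.49 and 5.9 in naive KO LPM. With IL-4c it read 5.22 and 5.53 in WT, 5.22 and 5.51 in KO, and 5.15 and 6.12 in LysM. All LPM groups overlapped one another, close above the array medians, and lay below the AM arrays. LPM were lower than AM in WT (-0.81 ± 0.26, limma adjusted p = 0.023) and in KO (-0.88 ± 0.26, limma adjusted p = 0.0137). The WT call was lost without AM WT replicate 1 or 2 or naive WT replicate 1 (adjusted p = 0.124, 0.0755 and 0.0878), and the KO call without AM KO replicate 2 or naive KO replicate 1 (adjusted p = 0.131 and 0.0639). IL-4c differences were -0.07 in WT (95% interval -0.63 to 0.49, limma adjusted p = 0.864) and -0.11 in KO (95% interval -0.67 to 0.45, limma adjusted p = 0.783). KO minus WT was 0.11 ± 0.29 in AM, 0.03 ± 0.24 in naive LPM and -0.01 ± 0.29 in IL-4c LPM, and LysM minus WT was 0.26 ± 0.29.

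Both tested genes beside or within the cluster were also lower in LPM than in AM. The LPM minus AM difference of Gpr171, another receptor gene, 12.8 kb before P2ry14, was -3.64 in WT and -3.64 in KO (at least 4.53-fold and 4-fold, its LPM readings being below the array medians), and that of F630111L10Rik was -1.23 and -1.53, and all were called. Gpr171, like P2ry13, entered the tests through AM. On the other side the nearest tested gene, Mbnl1, lies 1210 kb away and differed between the tissues by -0.07 in WT and -0.14 in KO, neither called. Over the 7 group means, P2ry12, P2ry13 and P2ry14 correlated with one another at Pearson r of 0.96 to 0.97. These means share arrays and are split mainly between AM and LPM, so r is a description only.

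P2rx4 and P2rx7 encode ATP-gated channels that lie 15.2 kb apart on chromosome 5, P2rx7 at 122643927 to 122692336 and P2rx4 at 122707518 to 122729739, where P2rx4 overlaps the kinase gene Camkk2. P2X7 needs high ATP and is known for triggering the NLRP3 inflammasome, and P2X4 responds to lower ATP and sits largely in endolysosomal membranes. Both genes were higher in LPM than in AM.

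P2rx7 read 6.83 and 6.99 in WT AM, 7.03 and 6.94 in KO AM, 7.71, 7.97 and 7.71 in naive WT LPM, and 7.36, 7.65 and 7.5 in naive KO LPM. After IL-4c it read 6.11 and 6.23 in WT, 6.81 and 6.42 in KO, and 7.01 and 7.13 in LysM. Naive LPM were thus the highest arrays, and IL-4c WT the lowest of all groups without overlap. The tissue difference was 0.88 ± 0.14 in WT (1.84-fold, limma adjusted p = 9.79e-05) and 0.52 ± 0.14 in KO (1.44-fold, limma adjusted p = 0.00756). Without AM KO replicate 2 the adjusted p in KO was 0.0693. IL-4c lowered P2rx7 3.1-fold in WT (-1.63 ± 0.14, limma adjusted p = 4.66e-07) and 1.85-fold in KO (-0.89 ± 0.14, limma adjusted p = 0.000202), and both falls kept their call in every alternative run. KO minus WT was 0.07 ± 0.16 in AM, -0.29 ± 0.13 in naive LPM and 0.45 ± 0.16 in IL-4c LPM (0.26 without IL-4c KO replicate 1 and 0.65 without replicate 2), and LysM minus WT was 0.91 ± 0.16. In IL-4c LPM the 2 KO arrays and the 2 LysM arrays all lay above the 2 WT arrays.

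P2rx4 read 7.46 and 7.75 in WT AM and 7.84 and 7.71 in KO AM, against 8.61, 8.64 and 8.79 in naive WT LPM and 8.35, 8.35 and 8.57 in naive KO LPM. IL-4c arrays read 8.36 and 8.2 in WT, 9.12 and 8.33 in KO, and 9.59 and 8.93 in LysM. Every LPM array lay above every AM array, and the 2 LysM arrays were above both IL-4c WT arrays. LPM exceeded AM by 1.07 in WT (SE 0.21, 2.1-fold, limma adjusted p = 0.000599) and by 0.64 in KO (SE 0.21, 1.56-fold, limma adjusted p = 0.0218). The KO call was lost without AM KO replicate 1 or 2 or naive KO replicate 3 (adjusted p = 0.0658, 0.131 and 0.0633) and on median-centred arrays (adjusted p = 0.0574). IL-4c differences were -0.40 in WT (95% interval -0.84 to 0.05, limma adjusted p = 0.144) and 0.30 in KO (95% interval -0.15 to 0.75, limma adjusted p = 0.281). A fit of the 5 compared arrays alone gave the WT difference an adjusted p of 0.0237. The KO value was -0.09 (adjusted p = 0.803) without IL-4c KO replicate 1 and 0.69 (adjusted p = 0.0245) without IL-4c KO replicate 2. LysM minus WT was 0.98 ± 0.23, from 0.65 without LysM replicate 1 to 1.31 without LysM replicate 2, and KO minus WT was 0.17 ± 0.23 in AM, -0.26 ± 0.19 in naive LPM and 0.44 ± 0.23 in IL-4c LPM. That last value was 0.05 without IL-4c KO replicate 1 and 0.83 without replicate 2.

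Entpd1, on chromosome 19 from 40612366 to 40741602, encodes CD39, the first enzyme of the ATP-to-adenosine chain. It read 8.26 and 8.11 in WT AM and 8.39 and 8.31 in KO AM. Naive LPM read 8.76, 8.98 and 9.06 in WT and 8.6, 8.44 and 8.7 in KO. IL-4c LPM read 7.73 and 7.88 in WT, 7.8 and 7.75 in KO, and 7.83 and 7.62 in LysM. The 6 IL-4c arrays overlapped one another and lay below all other arrays, and naive LPM lay above AM. IL-4c lowered Entpd1 2.19-fold in WT (-1.13 ± 0.13, limma adjusted p = 5.93e-06) and 1.75-fold in KO (-0.80 ± 0.13, limma adjusted p = 0.000213), calls kept in every alternative run. LPM exceeded AM by 0.75 in WT (SE 0.13, limma adjusted p = 0.000199). In KO the tissue difference was 0.23 (95% interval -0.05 to 0.51, limma adjusted p = 0.178), and 0.40 (adjusted p = 0.0214) after a second quantile normalization. KO minus WT was 0.17 ± 0.14 in AM, -0.35 ± 0.12 in naive LPM, where the groups did not overlap, and -0.03 ± 0.14 in IL-4c LPM. LysM minus WT was -0.08 ± 0.14.

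Nt5e, on chromosome 9 from 88327609 to 88372089, encodes CD73, the surface enzyme that makes adenosine from AMP. AM arrays read 5.88 and 6.88 in WT and 6.36 and 6.49 in KO. Naive LPM arrays read 8.72, 8.99 and 8.73 in WT and 7.28, 7.53 and 6.71 in KO. IL-4c LPM arrays read 8.11 and 8.44 in WT, 6.64 and 7.02 in KO, and 5.74 and 7.21 in LysM. The 5 WT LPM arrays were the highest of the series, with naive WT above IL-4c WT. Each mutant LPM group overlapped WT AM, whereas naive KO and IL-4c KO LPM lay above KO AM without overlap.

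WT LPM exceeded WT AM by 2.43 (SE 0.35, 5.39-fold, limma adjusted p = 3.21e-05), whereas the KO difference was 0.75 (SE 0.35, limma adjusted p = 0.106). The latter passed with array weights (0.84, adjusted p = 0.0196), with the compared arrays alone (0.75, adjusted p = 0.0215) and without naive KO replicate 3 (0.98, adjusted p = 0.0474). IL-4c differences were -0.53 in WT (95% interval -1.28 to 0.21, limma adjusted p = 0.244) and -0.34 in KO (95% interval -1.09 to 0.4, limma adjusted p = 0.475). With only the 5 compared arrays in the fit the WT value had adjusted p = 0.0152. As for P2ry6, these tests share arrays with the genotype values that chose the gene. KO minus WT was 0.05 ± 0.39 in AM, -1.64 ± 0.31 in naive LPM and -1.45 ± 0.39 in IL-4c LPM. LysM minus WT was -1.80 ± 0.39, but -1.06 without LysM replicate 1, the array with the lowest Nt5e signal of all 16. Nt5e is also carried by lymphocytes. T and NK cell markers averaged 3.62 to 3.69 on naive WT and 3.8 to 4.04 on naive KO LPM arrays, and B-cell markers 4.56 to 4.73 and 4.4 to 5.13, and their part in the Nt5e values was not tested.

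**Figure D2:**
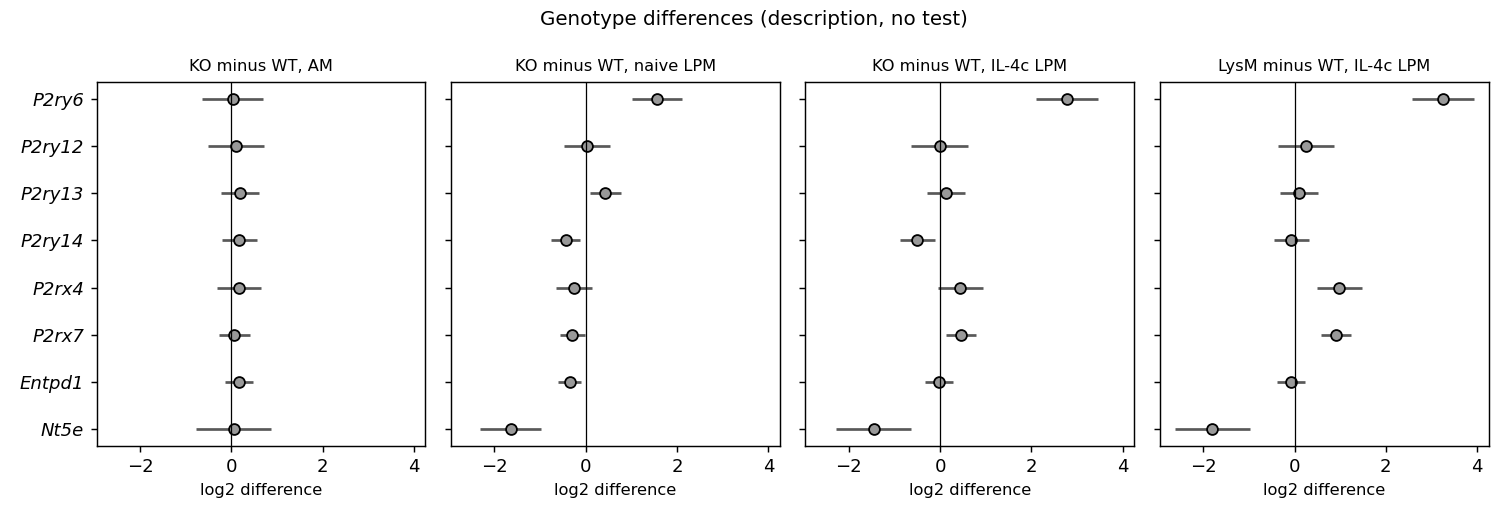
Genotype differences of the 8 genes (log2, mutant minus WT; points, fitted differences; lines, 95% intervals) in AM, naive LPM and IL-4c LPM, for KO and for LysM. P2ry6 lies at 1.56, 2.78 and 3.25 and Nt5e at -1.64, -1.45 and -1.80 in the 3 LPM comparisons, while both lie within 0.05 of 0 in AM; P2ry6 in IL-4c KO runs from 2.13 to 3.44 with 1 array left out, and the genes were chosen on these differences, which are a description.

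Set beside the other genes, the genotype counts were as follows, with nothing read from them because the choice used these contrasts. In AM 0 of the 8 genes were called by limma at an adjusted p under 0.05, where 0.12% of all 11634 tested genes were called (0.0516% higher and 0.0688% lower). In naive LPM 1 was called higher and 1 lower, against 0.533% and 1.35% of all genes (1.88% in all). KO in IL-4c LPM also gave 1 higher and 1 lower, against 2.12% and 1.5% (3.63% in all), and LysM gave 3 higher and 1 lower, against 4.8% and 3.87% (8.67% in all). The KO and LysM comparisons share their 2 WT arrays. At an unadjusted limma p under 0.05 the counts of the 8 were 0 in AM, 6 in naive KO, 4 in IL-4c KO and 4 in LysM. The share of all genes at that threshold was not counted, and the adjusted shares above are no measure for these counts. A second quantile normalization changed the share of naive LPM calls that were higher from 28.3% to 45.6% over all genes, and the P2ry6 and Nt5e differences there stayed within 1.52 to 1.65 and -1.68 to -1.55 over the alternatives that kept all arrays.

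**Figure D3:**
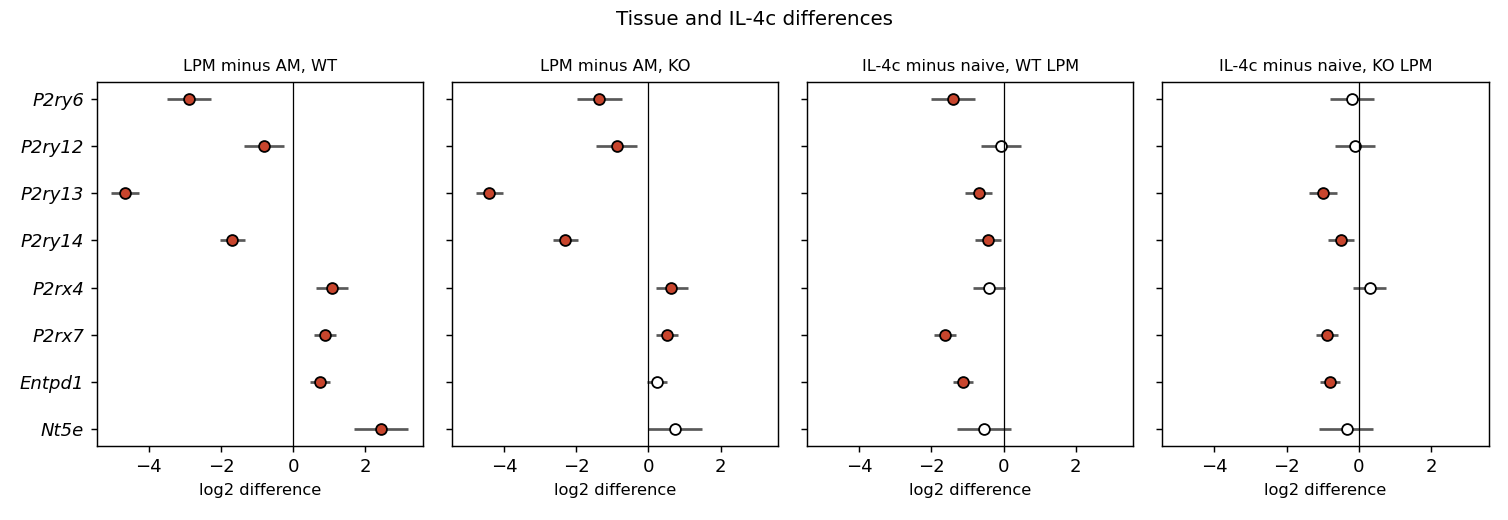
Tissue differences (LPM minus AM) and IL-4c differences (IL-4c minus naive LPM) of the 8 genes in WT and KO, in log2 units with 95% intervals; red points have a limma adjusted p under 0.05 and white points do not. The 4 P2Y genes lie below 0 and the other 4 above 0 in both tissue panels, and in WT all 8 IL-4c differences lie below 0.

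The tissue comparison split the 8 genes by class. In WT the 4 P2Y receptor genes were lower in LPM and the 2 P2X and 2 enzyme genes higher, all called, against 17.1% of all genes called lower and 21.2% called higher. In KO 4 were called lower and 2 higher, against 22.8% and 17.3%. P2ry6 and Nt5e were chosen on genotype values of these LPM arrays, and P2ry13 entered the tests through AM. These counts therefore describe the 8 genes and are no test of them as a set. Median differences of the 8 were -0.03 in WT and -0.33 in KO, and 0.02 and -0.01 over all tested genes. Without AM KO replicate 2 the KO calls numbered 3 in place of 6. In AM, markers of mesothelial, epithelial and endothelial cells averaged 5.64 to 5.89, against 4.08 to 4.29 in naive LPM. Krt19 (10.07 to 10.38) and Epcam (6.92 to 8.12) lay above the array median on every AM array. Col1a1 did so in both tissues. Sftpc read 3.82 on AM WT replicate 1 and 6.22 to 6.57 on the other AM arrays. Msln, Upk3b, Pecam1 and Cdh5 read at most 4.77 in AM. The part of such cells in the tissue differences was not tested.

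None of the 8 genes was called higher with IL-4c in the fit of all arrays, though P2rx4 in KO was (0.69, adjusted p = 0.0245) without IL-4c KO replicate 2. In WT LPM 5 were called lower and 0 higher, with a median difference of -0.61 against 0.02 over all genes, where 19.2% of all genes fell and 22% rose. In KO LPM 4 were called lower and 0 higher, with a median of -0.42 against 0.04, where 15.4% fell and 21.9% rose. At an unadjusted p under 0.05 the same counts held, 5 and 4, but the share of all genes at that threshold was not counted. Leaving out P2ry13, dim on both sides, 4 of 7 were called lower in WT and 3 of 7 in KO. P2rx7 and Entpd1 fell in both genotypes in every alternative run, whereas the P2ry14 calls in both were lost in several runs. P2ry6 was called in WT and not in KO, on arrays that also gave the values on which it was chosen. Whether the response itself differed between genotypes was not tested, as that difference is made of the contrasts that chose the genes. It came to 1.22 for P2ry6, 0.74 for P2rx7 and 0.70 for P2rx4 (KO response minus WT response). Without IL-4c KO replicate 1 these were 0.56, 0.55 and 0.31, and without IL-4c KO replicate 2 they were 1.88, 0.94 and 1.09. Of 8 macrophage markers 5 were also called lower with IL-4c in each genotype and 1 higher, with medians of -0.78 in WT and -0.47 in KO; they averaged 10.46 to 10.55 on naive and 9.36 to 9.56 on IL-4c WT arrays, and 10.31 to 10.39 and 9.63 to 9.92 on KO arrays. B-cell markers averaged 4.4 to 5.13 on the naive LPM and 3.94 to 4.12 on the 6 IL-4c arrays, and the brightest probe set of an array read 13.15 to 13.33 on naive and 13.67 to 13.84 on IL-4c arrays. LPM markers averaged 10.76 to 10.79 on naive and 9.73 to 9.81 on IL-4c WT arrays, and 10.4 to 10.57 and 9.77 to 9.79 on KO arrays. Of 7 such markers 3 were called lower with IL-4c in WT and 2 in KO, and 0 higher. Cxcl13 read 11.06 to 11.7 on naive LPM and 5.76 to 8.97 on IL-4c arrays. The endothelial marker Pecam1 read 4.02 to 4.49 on naive LPM and 6.36 to 7.33 on IL-4c arrays. The part of these shifts in the falls was not tested. No label gives a processing batch, so treatment and any batch that followed it cannot be told apart.

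The other genes of the pathway moved in both directions. Of 69 listed genes in 8 groups, 62 had a named probe set and 52 were tested. The 4 adenosine receptor genes were not analysed here. IL-4c raised 11 and lowered 10 in WT and raised 19 and lowered 9 in KO, or 40.4% and 53.8% of those tested against 41.2% and 37.3% of all genes. Between naive LPM and AM 18 were higher and 14 lower in WT, and 13 and 16 in KO, or 61.5% and 55.8% against 38.3% and 40% of all genes.

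Among the other receptors, P2ry1, a calcium-coupled ADP receptor, rose with IL-4c from 5.32, 5.43 and 5.44 to 7.31 and 7.25 in WT (1.89 ± 0.21, limma adjusted p = 4.36e-06) and from 5.54, 4.88 and 5.19 to 6.18 and 6.8 in KO (1.29 ± 0.21, limma adjusted p = 0.000231). P2ry2, the ATP and UTP receptor and the gene next to P2ry6 at 21.1 kb, rose in KO (1.30 ± 0.20, limma adjusted p = 0.000126) and differed by 0.32 ± 0.20 in WT (limma adjusted p = 0.216). P2rx1, a fast ATP-gated channel, read 6.86, 6.53 and 6.99 in naive WT LPM and 7.05 and 6.91 in IL-4c WT LPM. In KO it read 6.77, 7.11 and 7 in naive LPM and 9.11 and 8.74 with IL-4c, and LysM arrays read 9.45 and 9.11. The 4 mutant IL-4c arrays stood above all others of the series, and the IL-4c rise was 1.96 ± 0.17 in KO (3.9-fold, limma adjusted p = 7.04e-07) against 0.18 ± 0.17 in WT (limma adjusted p = 0.413). P2rx1 was also higher in LPM than in AM, by 2.68 in WT and 2.86 in KO (limma adjusted p = 1.66e-09 and 7.04e-10), where AM arrays read 4 to 4.23, below the array medians, so these are at least 3.84-fold and 4.45-fold. P2ry1 was higher in LPM than in AM in WT (1.19 ± 0.21, limma adjusted p = 0.000245), opposite to the 4 P2Y genes above, with AM readings below the array medians. P2ry10b was lower in LPM than in AM (-1.79 in WT and -1.91 in KO), as was P2rx5 (-0.86 and -0.61, with LPM means below the array medians), all called.

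**Figure D4:**
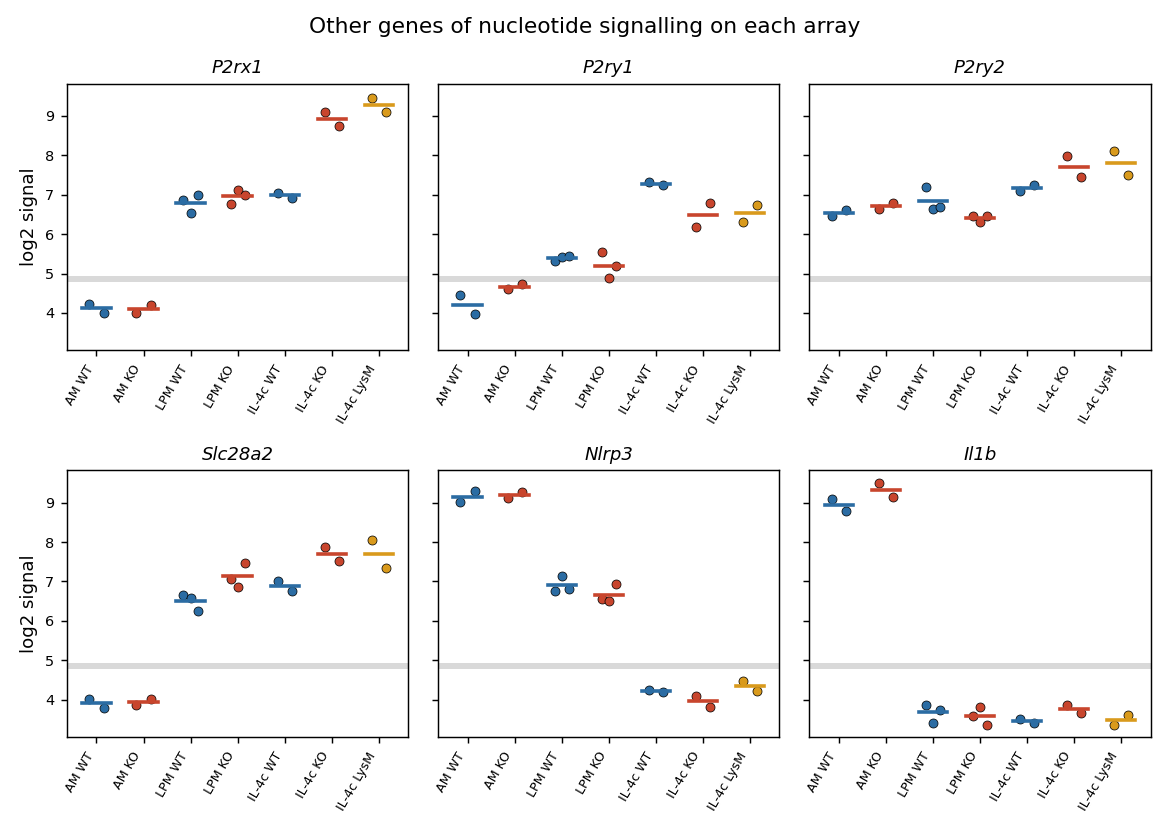
Log2 signal of 6 other genes of nucleotide signalling on each of the 16 arrays, drawn as for the 8 main genes (blue, WT; red, KO; gold, LysM; bars, group means; grey band, array medians). P2rx1 stands highest on the 4 mutant IL-4c arrays (8.74 to 9.45), P2ry1 is higher on all IL-4c arrays, and Nlrp3 and Il1b are highest on the AM arrays.

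Genes downstream of P2X7 were split. Nlrp3, the inflammasome sensor, fell with IL-4c in WT (-2.69 ± 0.17, limma adjusted p = 1.34e-08) and in KO (-2.71 ± 0.17, limma adjusted p = 1.82e-08), to 4.24 and 4.2 in WT and 4.1 and 3.82 in KO, below the array medians, or at least 4.2-fold and 3.53-fold. Pycard, the adaptor that joins NLRP3 to caspase-1, rose with IL-4c by 0.70 in WT and 0.57 in KO and was higher in LPM than in AM by 2.57 and 2.49, all called. Ano6, a lipid scramblase linked to P2X7, rose by 0.62 in KO (limma adjusted p = 0.00593) and differed by 0.27 in WT (limma adjusted p = 0.194). Il1b, the cytokine that the inflammasome matures, read 8.79 to 9.51 on AM arrays and at most 3.87 on LPM arrays, a difference of -5.26 in WT and -5.74 in KO (limma adjusted p = 4.14e-13 and 1.74e-13). Its LPM readings were all below the array medians, so AM exceeded naive LPM at least 16.9-fold in WT and 21.5-fold in KO. Il1b thus entered the tests through AM, and its tissue p-values are not independent of the signal filter. In all, 3 of the 8 genes of this group fell and 1 rose with IL-4c in WT, and 3 fell and 2 rose in KO, where of all genes 19.2% fell and 22% rose in WT and 15.4% and 21.9% in KO.

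The same shares of all genes, 22% higher and 19.2% lower in WT and 21.9% and 15.4% in KO, stand beside each IL-4c count of the groups that follow. Of the 12 genes of adenosine uptake and metabolism, 5 rose and 0 fell with IL-4c in each genotype. Ada, adenosine deaminase, rose by 1.09 in WT (limma adjusted p = 0.00142) and differed by 0.40 in KO (limma adjusted p = 0.198). Ampd2, AMP deaminase, rose by 1.06 in WT and 0.97 in KO (limma adjusted p = 3.9e-05 and 0.000131). The concentrative nucleoside transporter gene Slc28a2 was higher in LPM than in AM, by 2.59 in WT and 3.18 in KO (at least 3.13-fold and 5.01-fold, its AM readings being below the array medians), and the equilibrative transporter gene Slc29a1 lower (-1.96 and -1.72), all called. Of the 10 tested genes of other nucleotide and NAD hydrolases, 3 rose and 3 fell with IL-4c in WT and 5 rose and 2 fell in KO. Nudt5, an ADP-ribose hydrolase, rose by 1.32 in WT and 0.97 in KO. Bst1, an ectoenzyme of NAD metabolism, fell (-1.21 in WT and -0.81 in KO), as did Enpp4 (-0.98 and -0.85). Enpp5 was higher in LPM than in AM, by 2.49 in WT and 1.68 in KO. Among G-protein effectors, 4 of 11 fell and 0 rose with IL-4c in WT, and 4 fell and 2 rose in KO, with Plcb4, a phospholipase C, at -1.84 and -1.40, to means below the array medians. Plcb3, another, rose in KO by 0.61 and differed by 0.18 in WT (limma adjusted p = 0.277), and Plcb2 was lower in LPM than in AM (-0.84 in WT and -1.27 in KO). Of the 6 genes listed for nucleotide release, not all of them channels of the cell surface, 1 rose in WT, Vdac1 (1.16), and 0 fell in either genotype. In KO 2 rose, Vdac1 (1.22) and Gja1, a connexin (1.42 ± 0.38). Gja1 read 4.77, 4.56 and 3.95 on naive and 6.83 and 4.88 on IL-4c KO arrays, so its rise rests largely on 1 array. In WT Gja1 differed by 0.73 (limma adjusted p = 0.132). Lrrc8a, a volume-regulated channel subunit, was higher in LPM than in AM by 0.92 in WT and 0.60 in KO.

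The genes whose 7 group means ran most like those of P2ry6 were Anxa5, an annexin (r = 0.994), Pfkfb3, a regulator of glycolysis (r = 0.980), and Arhgap17 (r = 0.978). Anxa5 averaged 11.16 and 11.25 in WT and KO AM, 8.51 and 9.63 in naive LPM, 7.28 and 9.64 in IL-4c LPM, and 9.93 in LysM. Those nearest Nt5e were Hacl1 (r = 0.974), Srp72 (r = 0.967) and Fam3b (r = 0.964), and P2ry6 and Nt5e ran opposite to each other (r = -0.88). P2rx4 was nearest to Il18bp (r = 0.995), Ceacam2 and Ptges, P2rx7 to Tnfrsf13b (r = 0.981), Lamp2 and Ifih1, and Entpd1 to Eml6 (r = 0.989), Mettl4 and Vamp4. P2ry13 was nearest to Ncoa4, Cd101 and Mcam (r = 0.999 for each), P2ry14 to Scyl2 (r = 0.999), Adamtsl4 and Mctp2, and P2ry12 to Sh3pxd2b (r = 0.996), Trpv2 and Stk38l. With 7 means that share arrays, of which 2 are AM, such high r are a description of shape alone. Among the flanking genes, KO minus WT in naive LPM was -0.01 for Relt and -0.44 for P2ry2, beside P2ry6, and -0.08 for Cep162 and -0.01 for Snx14, beside Nt5e. In IL-4c LPM, LysM minus WT was -0.67, 0.63, -0.18 and 0.57 for these genes, of which Snx14 was called. Camkk2, which overlaps P2rx4, was higher in LPM than in AM by 1.06 in WT and 0.96 in KO.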

How the data were processed

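The values are log2 expression per probe set on 16 arrays, deposited by the authors as 1 table of 30177 probe sets. RMA is the only method that the submitters' processing notes name. It subtracts background, forces arrays to a common distribution and summarises probes, which hides any change in the amount of RNA a cell holds. Its software was not stated in any source used, and no detection calls come with the values.

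Groups and replicate numbers came from the titles. A single gene symbol was paired with 21789 probe sets, which were used; 1621 carried several symbols and 6767 carried none in the table used. Where a gene had several, the one with the highest mean was taken. Genes entered the tests if brighter than the median of the array on 2 arrays or more. P2rx1, P2rx5, P2ry1, Slc28a2 and Plcb4, dim in AM or in naive LPM, entered through the other tissue. Tissue p-values of such genes, as of Il1b, Gpr171 and P2ry13, are not independent of this filter. Differences were fitted with limma 3.58.1 in R 4.3.3 as group means over all 16 arrays (9 residual and 6.61 prior degrees of freedom), with Benjamini-Hochberg adjustment over 11634 genes within each comparison and an adjusted p under 0.05 as the threshold. The fit was tested on simulated data.

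The 8 genes and all lists were chosen with earlier results of these data known. Other genes named are, per list and comparison, the called gene with the largest rise and fall, the 3 genes most alike over group means (predicted symbols left out), and flanking tested genes. Positions and promoters are RefSeq's. Within the 8 comparisons fitted, deviations of same-numbered arrays correlated at r from -0.139 to 0.148, so replicate numbers were not taken as pairs. The highest were IL-4c KO against WT (0.115) and LysM against WT (0.148). KO and LysM arrays were not set against each other. Alternatives tried were no filter, a stricter filter, other scalings, array weights, an intensity trend with robust variance, averaged probe sets per gene, the compared arrays alone, a replicate block and each array left out.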

Additional observations from a re-analysis of the deposited data

How the results depend on the processing

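Of 448 refits of the 32 tissue and IL-4c differences, 410 kept direction and side of the threshold, 21 lost a call, 9 gained one and 8 changed sign. All sign changes were in values not called. P2ry12 under IL-4c turned to 0.08 in WT and 0.04 in KO with the replicate number as a block, to 0.01 and 0.08 in WT without naive WT replicate 3 and IL-4c WT replicate 1, and to 0.1 and 0.04 in KO without naive KO replicate 3 and IL-4c KO replicate 1. With 1 array left out, P2ry12 ran from -0.22 to 0.08 in WT and from -0.33 to 0.1 in KO, P2ry6 under IL-4c in KO from -0.84 to 0.48, and P2rx4 there from -0.09 to 0.69. The number of the 8 genes called ran from 4 to 5 (IL-4c, WT), 3 to 5 (IL-4c, KO), 7 to 8 (tissue, WT) and 3 to 6 (tissue, KO) when 1 array was left out, and was 4 to 7, 3 to 4, 8 and 5 to 7 under the other alternatives. With the replicate block it was 5, 4, 8 and 7, where Nt5e was gained between tissues in KO (0.88, adjusted p = 0.016). Where 1 array of a pair is left out, the remaining one is assumed to vary like the other groups. Signals below the array medians, as for P2ry13 in LPM and P2ry6 in IL-4c WT, limit how exactly a fall can be sized.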

Other observations

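Several pathway genes outside the 8 were called between genotypes; they were singled out after their values were seen and are given as values. Of 52 tested, 0 were called by limma in AM, 1 in naive LPM, 2 for KO in IL-4c LPM and 5 for LysM. These are 0%, 1.92%, 3.85% and 9.62%, against 0.12%, 1.88%, 3.63% and 8.67% of all genes. At an unadjusted p under 0.05 the counts were 4, 14, 11 and 15, a threshold at which the share of all genes was not counted. Enpp5 was lower in naive KO LPM (6.57 against 7.89 in WT). P2rx1 was higher in IL-4c LPM of KO (8.93) and LysM (9.28) than of WT (6.98), and Plcb2, a phospholipase C of G-protein signalling, lower (6.94 and 6.98 against 7.58). The arrays labelled LysM also read higher than WT for Gja1 (6.54 against 4.68), the acid phosphatase gene Acpp (6.07 against 5.22) and Slc28a2 (7.7 against 6.89). IL-4c KO arrays averaged 5.85 for Gja1, 5.24 for Acpp and 7.7 for Slc28a2, none of them called against WT. The KO and LysM values share their 2 WT arrays.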
